A study of Mus musculus with 2 samples.

Results

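Broad stretches of H3K4me3 that lie far from any annotated transcript start were described in lung group 2 innate lymphoid cells (ILC2s). H3K4me3 is trimethylation of lysine 4 of histone H3, and it normally sits on nucleosomes at active transcript starts. In each of 2 peak lists, peaks at most 1000 bp apart were joined, and autosomal domains at least 1000 bp wide were kept when no GENCODE vM21 transcript start of any type lay within 5000 bp. These wide distal domains numbered 1765 of 31969 joined autosomal domains (5.52%) in offspring of control mothers and 2519 of 38180 (6.60%) in offspring of asthmatic mothers, or 4284 of 70149 in all. Of the domains that reached 1000 bp, they were 1765 of 3939 (44.8%) and 2519 of 3420 (73.7%). These counts depend on the definition, with 141 and 159 domains when only touching peaks were joined and 91 in each list at a width of 2000 bp. Nearly all of them were copies of a few families of interspersed repeats, chiefly the ends of L1-like elements, and most narrower distal domains aligned to the same elements.

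The 2 libraries came from C57BL/6J mice, 1 library per group, so no value has a replicate and no test between the groups was possible. Control mothers received PBS with 25 µL alum intraperitoneally before mating and PBS intranasally from gestation day 4 to 17. Asthmatic mothers received 100 µg ovalbumin (OVA) with 25 µL alum at each sensitization. They then received 500 µg OVA at each intranasal dose, repeated over the same days. The fathers were untreated, and about 3000 ILC2s were sorted from the lungs of offspring at 8 weeks of age, both sexes, from 1 pregnant dam per group. The mark was profiled by CATCH-seq, a ChIP-seq of unfixed chromatin cut with micrococcal nuclease, made for samples of few cells. The peaks of the offspring of control mothers are called the control list below, and those of the offspring of asthmatic mothers the maternal-asthma list.

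The lists held 42126 and 51610 peaks, and the depth of the libraries was not given in them. The median number of fragments at a summit over autosomal peaks, solved from fold and p, was 22 in the former and 18 in the latter. Of 11 ILC2 marker genes, 9 had a peak at a start in the control list (among them Gata3, the master regulator of the lineage, and Il1rl1, the IL-33 receptor) and 6 in the maternal-asthma list, where Gata3, Il7r and Il2ra had none. Icos and Klrg1 had none in either list. No T cell, B cell, macrophage, neutrophil or fibroblast marker had a peak in either list. Epcam and Cdh1 of 4 epithelial markers and Kdr of 4 endothelial markers had one in the control list only. The part of these differences in the results below was not tested, and fewer marked cells cannot be told apart from less signal per cell.

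Much of the mouse genome consists of transposable elements that copied themselves through RNA. L1 elements carry a promoter at their 5′ end, built in the mouse from tandem monomers, and 2 reading frames, the second of which encodes the reverse transcriptase. Most of their copies are cut short at the 5′ end, so the 3′ end is far more common than the promoter. Endogenous retroviruses are flanked by direct long terminal repeats (LTRs), which hold their promoter, and just after the first LTR lies a short site complementary to the end of the transfer RNA that primes reverse transcription. Both kinds are normally silenced by DNA methylation and by histone marks other than H3K4me3. Reads from young copies are often equal to many places in the genome, so that an aligner has to choose among them.

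Sequences are shown first, because the repeat content is what the domains shared. All are reference sequence of GRCm38 (RefSeq), not read from the libraries, and coordinates count from 1. The widest domain of the maternal-asthma list, chr7:41171831-41175408, was an array of L1-type monomers, and 300 bases at chr7:41172182-41172481 on the plus strand are given with the first unit of 208 bases in capitals, since the next unit repeats it base for base.
L1-type monomer array: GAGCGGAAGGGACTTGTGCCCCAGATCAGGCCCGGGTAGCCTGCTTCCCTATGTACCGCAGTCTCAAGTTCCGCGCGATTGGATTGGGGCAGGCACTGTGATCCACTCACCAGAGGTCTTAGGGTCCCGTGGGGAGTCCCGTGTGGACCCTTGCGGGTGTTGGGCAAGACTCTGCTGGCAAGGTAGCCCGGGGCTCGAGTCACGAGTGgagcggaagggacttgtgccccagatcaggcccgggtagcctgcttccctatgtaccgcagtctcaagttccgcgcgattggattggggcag
A domain of 3053 bp on chromosome 6, the fourth widest of the control list, lay in sequence of which only 5.73% was repeat-masked, and 300 bases at chr6:146714231-146714530 (plus strand) show a unit of 83 bases, the first in capitals, repeated without change.
Unmasked array: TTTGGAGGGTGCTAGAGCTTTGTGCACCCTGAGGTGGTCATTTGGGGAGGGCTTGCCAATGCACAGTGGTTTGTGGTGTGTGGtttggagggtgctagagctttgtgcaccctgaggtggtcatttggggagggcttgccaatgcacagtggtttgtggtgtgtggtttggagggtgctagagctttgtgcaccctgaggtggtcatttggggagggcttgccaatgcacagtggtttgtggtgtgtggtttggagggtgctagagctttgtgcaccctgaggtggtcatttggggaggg
The domain with the most fragments at its summit lay on chromosome 17. In the 300 bases around that summit, chr17:13552762-13553061 (plus strand), each of 45 copies of the commonest 5-base run is in capitals.
Short array: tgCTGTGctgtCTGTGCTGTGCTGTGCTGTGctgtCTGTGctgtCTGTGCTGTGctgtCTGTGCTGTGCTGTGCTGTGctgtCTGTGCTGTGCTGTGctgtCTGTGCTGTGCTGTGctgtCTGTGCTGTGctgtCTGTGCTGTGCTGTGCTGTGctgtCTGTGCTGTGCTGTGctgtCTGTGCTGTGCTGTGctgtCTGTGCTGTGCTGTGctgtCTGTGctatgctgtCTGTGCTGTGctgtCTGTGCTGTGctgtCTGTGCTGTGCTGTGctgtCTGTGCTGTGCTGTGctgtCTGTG
The domain nearest to the last assembled base of chromosome 9 was built of a 31-base unit, and 5 units at chr9:124256353-124256507 (plus strand) are given in alternate case.
31-base array: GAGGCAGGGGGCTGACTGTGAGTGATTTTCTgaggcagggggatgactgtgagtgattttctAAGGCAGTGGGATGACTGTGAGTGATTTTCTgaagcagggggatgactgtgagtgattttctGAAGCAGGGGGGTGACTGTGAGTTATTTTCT
Finally, a low-copy domain on chromosome 15, which had the highest −log10 q in the control list, shared its sequence with a domain near the first assembled base of chromosome 16. The 120 gapless bases in which they were most alike are chr15:75085990-75086109 (plus strand) and chr16:3116552-3116671 (minus strand), with the 2 bases that differ in capitals.
Chromosome 15 domain: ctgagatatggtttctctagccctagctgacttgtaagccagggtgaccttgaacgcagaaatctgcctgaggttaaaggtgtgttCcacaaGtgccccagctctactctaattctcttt
Chromosome 16 domain: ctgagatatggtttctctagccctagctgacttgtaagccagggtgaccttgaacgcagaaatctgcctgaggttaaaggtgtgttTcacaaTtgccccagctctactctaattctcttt

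The rule fixed the width and the distance, so these are given as a description. Widths had a median of 1308 bp (quartiles 1099 and 1562, up to 3309) in the control list and of 1256 bp (1094.5 and 1502.5, up to 3578) in the maternal-asthma list. The domains were loosely filled, with a median of 2 peaks each, and peaks covered 61.0% and 57.5% of their bases. Only 118 and 139 of them were a single peak. Just inside the width limit, 252 and 380 domains exceeded it by less than 50 bp, and just outside it 265 and 420 distal domains fell short of it by at most 50 bp. The nearest transcript start lay a median of 29377 and 30120 bp away. At the start limit, 29 and 44 of them had their nearest start at most 500 bp beyond it, and 30 and 28 wide domains with a start less than 500 bp inside it were left out.

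The median of the highest −log10 q in a domain was 8.99 in the control list and 9.59 in the maternal-asthma list, and the median fold over the caller's background was 5.27 and 5.56. The median solved number of fragments at the summit was 24 in both lists (5th to 95th percentile 15 to 39 and 14.9 to 41.1). Wide domains near a start had a median of 28 fragments in the control list and 20 in the maternal-asthma list, and a median −log10 q of 12.9 and 8.97. A protein-coding gene overlapped 27.1% (95% interval 25.1 to 29.3%) and 26.5% (24.8 to 28.3%) of the wide distal domains. The share was 25.3% and 25.5% of narrower distal domains, 36.3% of windows with no start within 5000 bp and 49.4% and 42.3% of all joined domains. An annotated exon of any type was touched by 8 (0.45%, 0.20 to 0.89%) and 7 (0.28%, 0.11 to 0.57%) of the wide distal domains, against 0.42% and 0.24% of narrower distal domains and 5.99% of those windows.

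Repeat-masked sequence made up at least 90% of the bases in 95.8% of the wide distal domains of the control list (exact Clopper-Pearson 95% interval 94.7 to 96.6%, which covers counting error only, as do all intervals here) and in 96.6% (95.8 to 97.3%) of those of the maternal-asthma list. The same was true of 7.97% of 23957 evenly spaced 1000 bp windows of the autosomes. Wide domains near a start reached it in 12.2% and 41.2% of cases. Narrower distal domains reached it in 93.5% (93.1 to 93.9%) and 94.8% (94.5 to 95.1%) of cases, with intervals that lay below those of the wide ones.

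Exact copies of the sequence were counted over stretches of 75 bases, the length of a read. At least 90% of these stretches had another exact copy in the genome in 84.5% (82.7 to 86.1%) of the domains of the control list and 80.03% (78.4 to 81.6%) of those of the maternal-asthma list, against 2.68% of windows. Narrower distal domains reached it in 83.8% and 84.1% of cases and wide domains near starts in 10.5% and 33.3%. The median domain had 919 and 596 other copies of a stretch. Under 10% of stretches were copied in only 32 and 23 wide distal domains. How the aligner placed reads with several equal positions was not given in the sources used here, so the part of such reads in the peaks was not tested.

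The wide distal domains were also poorer in GC and CpG than those near starts. The median GC content was 45.0% and 46.1%, against 65.1% and 61.8% in wide domains near starts, 48.5% and 49.3% in narrower distal domains and 41.7% in windows. The ratio of observed to expected CpG dinucleotides had a median of 0.19 in both lists, close to the 0.22 and 0.21 of narrower distal domains and the 0.16 of windows, whereas wide domains near starts had 0.80 and 0.68.

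To find which repeats they were, the domains were aligned to 7 reference elements picked from the genome around the domains themselves, an element being accepted for a domain when it covered at least 50% of it. The choice of elements and the parts into which they are split below were made after the values were seen. Each element was the candidate that covered the most of the wide distal domains it was tried on. Shares over these domains are thus raised by the choice, and comparisons with other domains and windows favour them. Of 3 L1-like elements, each carried a reading frame of 1300 codons preceded by one of 384, 379 or 407 codons. They lie at chr3:45576938-45586337 (plus strand), chr2:133964280-133973679 (minus strand) and chr13:85837444-85846843 (minus strand). The other 4 had a 16-base complement to the 3′ end of a transfer RNA, for phenylalanine at chr1:66016984-66025483 (minus strand), leucine at chr3:57371373-57379872 (minus strand), isoleucine at chr2:56852491-56860990 (plus strand) and glutamine at chr1:164223507-164232006 (plus strand). These sites, which mark where reverse transcription of a retroviral-type element starts, are shown because they name the groups.
Phenylalanine site: tggtgccgaaacccgg
Leucine site: tggtaccaggagtggg
Isoleucine site: tggtggcccgtacggg
Glutamine site: tggaggttccaccgag
The Phe-site element had direct repeats of 367 bases, identical to each other and ending 2 bases before the site. The Leu-site element had identical repeats of 493 bases ending 4 bases before it, and the Gln-site element identical repeats of 698 bases ending 2 bases before it. The Ile-site element had no such identical pair, its longest repeats of 513 bases being 96.1% alike and 267 bases from the site.

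Any of the 7 elements accounted for 93.5% (92.3 to 94.6%) of wide distal domains in the control list and 94.5% (93.5 to 95.3%) in the maternal-asthma list, against 10.6% of windows, 86.5% and 85.4% of narrower distal domains and 11.2% and 38.6% of wide domains near starts. L1-like elements took 1126 (63.8%, 61.5 to 66.0%) and 1536 (61.0%, 59.0 to 62.9%). The Phe-site element took 319 (18.1%, 16.3 to 19.9%) and 442 (17.5%, 16.1 to 19.1%), and the Leu-site element 182 (10.3%, 8.93 to 11.8%) and 360 (14.3%, 12.9 to 15.7%). Narrower distal domains had similar L1-like shares, 65.5% and 63.5%, and lower ones for the Phe-site element (11.4% and 10.5%) and the Leu-site element (4.63% and 5.34%). In windows the shares were 9.15%, 0.551% and 0.363%, and wide domains near starts were L1-like in 6.85% and 20.0% of cases. The Ile-site element held 18 and 35 domains and the Gln-site element 6 and 7.

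**Figure D1:**
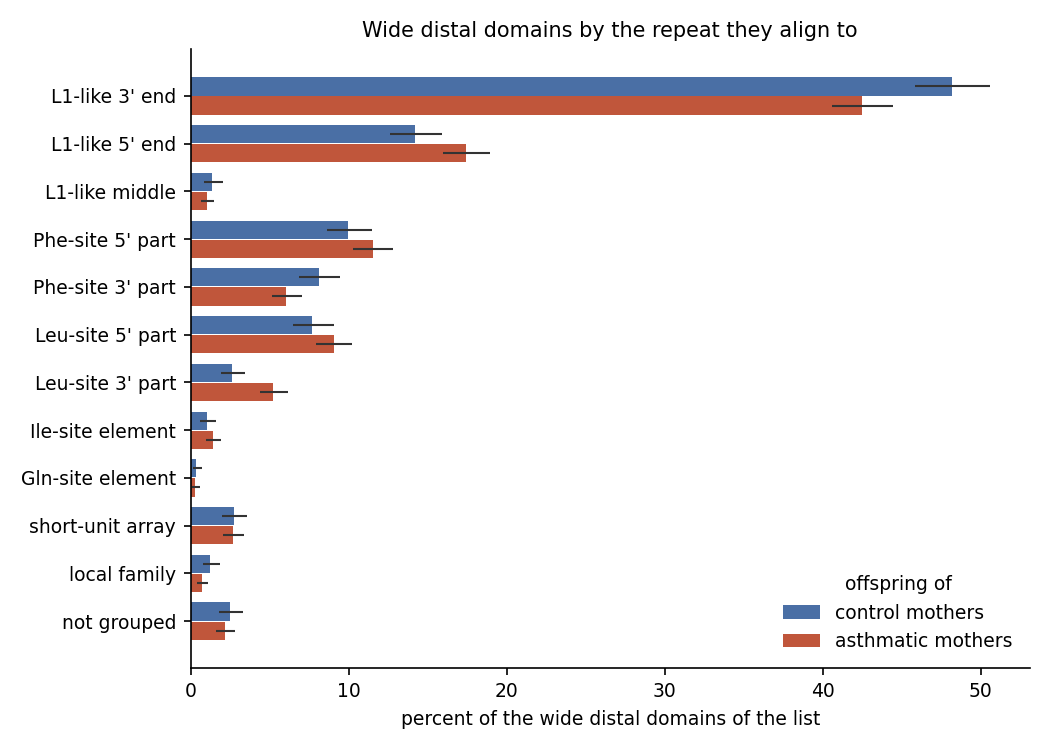
Share of the wide distal domains of each list (horizontal axis, percent) by the repeat they aligned to (vertical axis), blue for the control list (n = 1765) and red for the maternal-asthma list (n = 2519), with exact 95% intervals as lines. L1-like 3′ ends are the longest bars, 48.2% and 42.5%.

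The domains did not spread along the elements but lay at particular places. On the L1-like elements, 851 (48.2% of all, 45.9 to 50.6%) and 1071 (42.5%, 40.6 to 44.5%) domains lay at the 3′ end, 251 (14.2%, 12.6 to 15.94%) and 439 (17.4%, 15.96 to 18.97%) at the 5′ end and only 24 and 26 in the middle. Domains were placed by the middle of their aligned part, before the second reading frame for the 5′ end, in its first 2000 bases for the middle and beyond them for the 3′ end. Along the first L1-like element, the share of its domains that covered a position was highest 3500 bases after the start of the second frame in the control list, 340 of 480 (70.8%), and 4100 bases after it in the maternal-asthma list, 508 of 703 (72.3%). Between the ends the share dropped to 1.46% and 0.43%. A smaller rise lay upstream of the frames, over the tandem monomers, whose unit was 212, 208 and 206 bases in the 3 elements. It reached 21.9% of the domains of the second element in the control list and 32.5% in the maternal-asthma list.

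**Figure D2:**
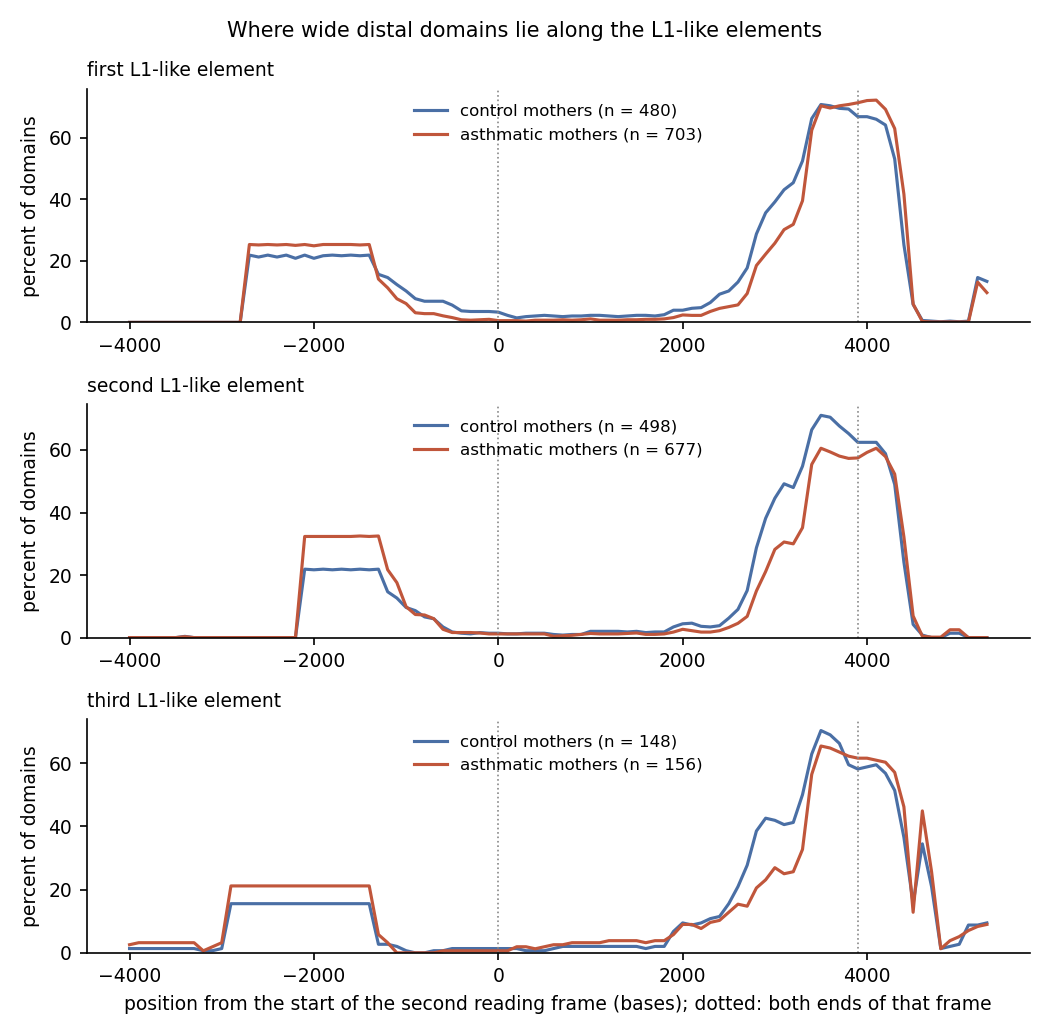
Share of the domains aligned to each L1-like element that cover a position (vertical axis, percent), by position from the start of the second reading frame (horizontal axis, bases), blue for the control list and red for the maternal-asthma list. In both lists the share is highest beyond 2900 bases and lower over the 5′ monomers, with few domains between.

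The ends of the L1-like elements differed in their signal as well as their place. Domains at the 3′ end had a median of 20 fragments in both lists, over a caller background of 2.53 and 2.11. Domains at the 5′ end had 32 and 35 fragments over a background of 6.92 and 6.18, and their fold was 4.17 and 4.99 against 5.88 and 6.31 at the 3′ end. They were also richer in GC, 60.7% and 61.9% against 43.1% and 44.1%, and in CpG, with an observed to expected ratio of 0.55 and 0.56 against 0.17 and 0.16. Tandem arrays, in which at least 70% of bases equal the base 1 unit further on, made up 136 of 251 and 301 of 439 of the 5′ end domains and none at the 3′ end. A wide distal domain at the 3′ end of the same copy accompanied 0 of 251 of the 5′ end domains (upper 95% bound 1.46%) and 4 of 439 (0.91%, 0.25 to 2.32%). The same copy was inferred from strand and spacing. Of all copies of an L1-like 3′ zone far from starts, described below, 2.62% and 3.20% held a wide distal domain. Among copies at least 98% identical it was 9.62% and 11.6%. Whether a domain at 1 end affects the other was not tested.

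On the retroviral-type elements the domains also lay in separate blocks. On the Phe-site element, 176 and 290 domains had their middle in the 5′ part, up to 3000 bases after the site, and 143 and 152 beyond it. The share of domains covering a position was highest 1400 bases after the site in the control list, 186 of 319 (58.3%), and 1500 bases after it in the maternal-asthma list, 296 of 442 (67.0%). Further on, it peaked 5900 bases after the site at 29.5% and 31.4%. On the Leu-site element, 136 and 228 domains had their middle in the 5′ part, up to 2000 bases after the site, and 46 (2.61%, 1.91 to 3.46%) and 132 (5.24%, 4.40 to 6.18%) in the 3′ part. The share was highest 500 bases after the site, 74.7% and 63.3%, and rose again to 21.4% and 33.3% at 4100 bases. The Leu-site 5′ domains had the highest median width of the groups aligned to an element, 1675.5 and 1667.5 bp, and few CpG, with an observed to expected ratio of 0.092 in both lists. The Phe-site 5′ domains had 31 fragments in both lists over a background of 6.99 and 6.90, and a CpG ratio of 0.53 and 0.54.

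**Figure D3:**
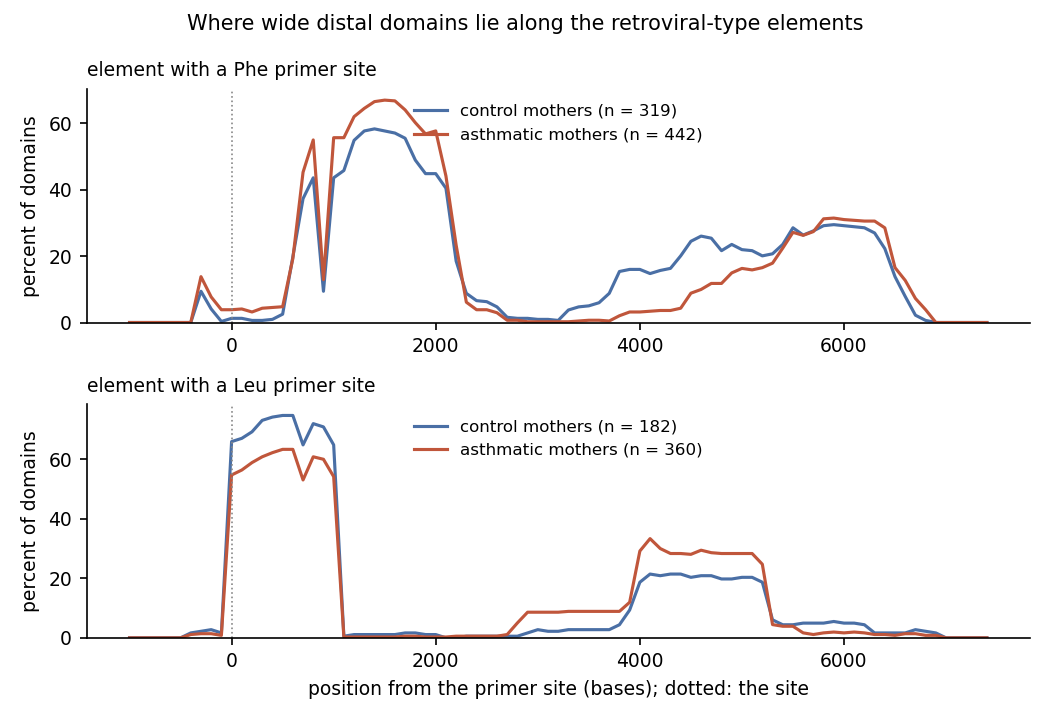
Share of the domains aligned to the elements with a Phe or Leu primer site that cover a position (vertical axis, percent), by position from the site (horizontal axis, bases), blue for the control list and red for the maternal-asthma list. In both lists the domains fall into an upstream and a downstream block with few domains between, and the aligned part of the upstream Leu-site block begins at the site.

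Primer sites were also searched in the sequence around the domains. Within 4500 bases of the middle of the domain, a site for phenylalanine was present at 23.8% (20.8 to 26.97%) of the 761 Phe-site domains, against 0.53% of windows and 0.113% of L1-like domains. A leucine site was present at 16.1% (13.1 to 19.4%) of 542 Leu-site domains, against 0.39% of windows. An isoleucine site was present at 73.6% (59.7 to 84.7%) of 53 Ile-site domains and a glutamine site at 92.3% (64.0 to 99.8%) of 13 Gln-site domains, against 0.28% and 0.083% of windows. From most domains in the 3′ part of a Phe-site or Leu-site element this span does not reach the place of the site, so these shares do not measure how often copies keep it. The domains in the 5′ part lie within its reach, 176 and 290 of the Phe-site and 136 and 228 of the Leu-site element. An exact site was found at only 181 Phe-site and 87 Leu-site domains, so most domains in the 5′ parts had none. The groups are named after the site of the reference element. The reference elements were picked from among domains near such a site, so the shares are a description.

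Most copies of the elements in the genome held no wide distal domain. Zones of up to 1500 bases were taken from the first L1-like, the Phe-site, the Leu-site and the Gln-site element at and between the places where domains lay, and their copies were found in the genome. The domains are joined peaks of the same lists, so higher shares with a peak in the end zones than between them are partly built in. The contrast between zones is a description. Of 25526 copies of the L1-like 3′ zone far from starts, 2.62% (2.43 to 2.83%) held a wide distal domain in the control list and 3.20% (2.98 to 3.42%) in the maternal-asthma list, and 18.5% and 25.4% held a peak of any width. The share with a peak was higher among copies closer to the reference element. Of copies at least 98% identical, 47.6% (45.4 to 49.8%) and 65.6% (63.4 to 67.7%) held a peak, of those 95 to 98% identical 40.9% and 53.6%, of those 90 to 95% identical 4.51% and 8.25%, and of those 80 to 90% identical 0.23% and 0.62%. In the L1-like middle zone, 12.0% (10.7 to 13.4%) and 7.31% (6.30 to 8.43%) of copies at least 98% identical held a peak, and 0 of 5037 copies that were 80 to 90% identical did in either list (upper 95% bound 0.0732%).

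The other end zones gave the following shares. The L1-like 5′ zone held a peak in 69.6% and 88.6% of copies 95 to 98% identical and in 12.3% and 27.3% of those 80 to 90% identical. The Phe-site 5′ zone held one in 67.8% (64.9 to 70.6%) and 83.0% (80.6 to 85.3%) of 1044 copies, and a wide distal domain in 16.6% and 27.4%. By identity, 80.8% and 92.4% of its 291 copies at least 98% identical held a peak, 65.9% and 83.7% of 602 copies 95 to 98% identical, and 44.0% (34.1 to 54.3%) and 61.0% (50.7 to 70.6%) of 100 copies 90 to 95% identical. The 51 copies 80 to 90% identical held one in 62.7% (48.1 to 75.9%) and 64.7% (50.1 to 77.6%), with intervals that overlap those of the step before. The Phe-site 3′ zone held a peak in 46.2% (43.6 to 48.9%) and 60.9% (58.3 to 63.5%) of 1380 copies, falling from 56.1% and 70.8% of copies at least 98% identical to 31.1% and 48.4% of those 90 to 95% identical. The Gln-site 5′ zone held one in 51.0% (36.3 to 65.6%) and 63.3% (48.3 to 76.6%) of 49 copies. The middle of the Phe-site element held a peak in only 6.61% and 1.78% of 787 copies, of which 723 were at least 98% identical. In the Leu-site element, 24.5% and 35.2% of 1483 copies of the 5′ zone and 50.3% and 72.2% of 569 copies of the 3′ zone held a peak, against 4.03% and 8.45% of 521 copies of the middle. Of these middle copies 470 were at least 98% identical, as were 469 copies of the 3′ zone, in which 58.2% and 82.9% held a peak. The 5′ and 3′ zones differ in their mix of copies, since only 5 copies of the 5′ zone were at least 98% identical. Among copies 95 to 98% identical, a peak was held by 43.4% (38.6 to 48.4%) and 66.0% (61.2 to 70.6%) of 412 in the 5′ zone and by 33.3% (19.1 to 50.2%) and 51.3% (34.8 to 67.6%) of 39 in the 3′ zone. Among copies 90 to 95% identical it was 21.1% and 28.8% of 854 in the 5′ zone, against 0 and 2 of 24 in the 3′ zone.

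**Figure D4:**
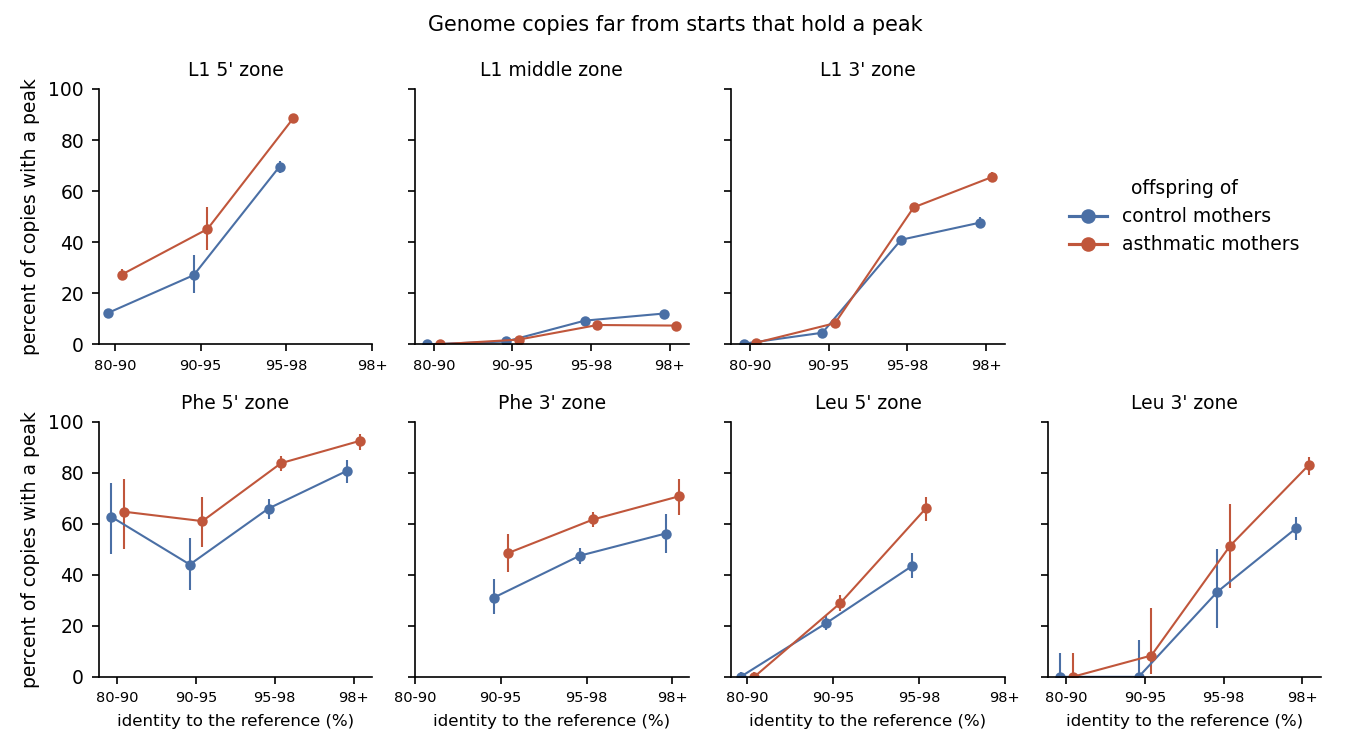
Share of genome copies far from starts that hold a peak (vertical axis, percent) by identity to the reference element (horizontal axis, percent), 1 panel per zone, blue for the control list and red for the maternal-asthma list, with exact 95% intervals as lines, and points with under 20 copies left out. In the L1-like 3′ zone the share is 47.6% and 65.6% for the most identical copies, and in the L1-like middle zone it is at most 12.0%. The zones were picked by where the domains lay, so their contrast is a description.

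Inside protein-coding genes, the L1-like domains lay on the strand of the gene in 107 of 301 cases (35.5%, 30.1 to 41.2%) in the control list and 146 of 390 (37.4%, 32.6 to 42.4%) in the maternal-asthma list. The Phe-site domains did so in 28 of 73 (38.4%, 27.2 to 50.5%) and 31 of 113 (27.4%, 19.5 to 36.6%). The Leu-site domains did so in 30 of 59 (50.8%, 37.5 to 64.1%) and 48 of 98 (49.0%, 38.7 to 59.3%). The same share was not computed for narrower distal domains or for all copies of these elements in genes. Whether the marked copies differ in strand from the others was therefore not tested. By chromosome, wide distal domains were sparsest on chromosome 19, with 0.361 and 0.756 per Mb, and densest on chromosome 16 in the control list (0.989 per Mb) and on chromosome 3 in the maternal-asthma list (1.31 per Mb).

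The remaining domains were arrays of short units, small local families or ungrouped sequence. Arrays with a unit under 100 bases numbered 48 and 67, with a median −log10 q of 17.4 and 15.2, and 24 and 31 of them had a unit under 20 bases. In each list 5 of them were at least 90% purine on 1 strand, a composition found in 3 of 23957 windows. An array on chromosome 5, chr5:28098391-28099427, with a 6-base unit, 23725 bp from a start of Insig1 (a regulator of cholesterol synthesis), had 63 fragments at its summit in the maternal-asthma list (fold 18.1, the highest of any wide distal domain) and 30 in the control list (fold 10.97). Another 6-base array, chr7:35159885-35160902, had 61 fragments in the maternal-asthma list and 30 in the control list, where it was not a wide distal domain. Its stretches had a median of 16133 other copies. Both arrays were chosen after their values were seen.

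None of the 10 domains of highest −log10 q in either list aligned to an element, and 7 and 6 of them had under 10% of their stretches copied. The strongest in the control list, chr15:75085460-75087078, shown above, had 208 fragments at its summit over a background of 18.5 (−log10 q 133), and in the maternal-asthma list 156 fragments (−log10 q 99.04). It lies 6366 bp from a start of Gm28502, and only 4.84% of its stretches were copied. Its relatives were chr16:3114561-3116720, 89.3% identical over 1144 bases, with 85 and 68 fragments, and chr18:3004694-3006061, 92.2% identical over 1177 bases, with 110 and 105 fragments. They lie 114560 and 4693 bp from the first assembled base of their chromosomes. Shorter resemblances joined chr13:3372838-3374319 (79.7% over 349 bases with the chromosome 18 domain, 84 and 65 fragments) and chr3:8245207-8246521 (76.1% over 247 bases with that of chromosome 16, 69 and 73 fragments). The latter was closer to chr2:181917337-181918809, 80.8% over 719 bases. The sites on chromosomes 16, 13 and 3 were added after their values were seen.

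The CTGTG-rich domain on chromosome 17, chr17:13550666-13553175, had the most fragments of all, 368 in the control list and 293 in the maternal-asthma list, over backgrounds of 73.1 and 55.6. In the control list 69.5% of its bases equalled the base 1 unit further on. This was just under the 70% set for an array, so it was not grouped with the arrays of short units. It resembled 2 domains on chromosome 5, chr5:25816102-25818400 (86.0% identical over 2437 bases) and chr5:104330758-104332162 (85.2% over 1466 bases). The domain of 31-base units on chromosome 9, chr9:124256298-124257981, had 175 and 154 fragments and lay 64 bp from an assembly gap. Another domain, chr9:123923356-123924691, 44001 bp from a start of Ccr1 (a chemokine receptor) and 246 bp from a gap, had 106 and 86 fragments, at a fold of 14.0 and 16.2, although it was not a wide distal domain in the maternal-asthma list. A further one, chr13:119598221-119600666, within Tmem267, had a fold of 4.04 and 4.39, with 218 fragments in the control list, and was 84.6% identical to the first over 1081 bases. A group of 4 domains between chr6:47685168 and chr6:47773124 were alike in sequence, 92.8 to 97.6% identical in pairs, with a median GC content of 64.6% and CpG ratio of 0.81 in the control list. They had 163 to 182 fragments in the control list and 120 to 138 in the maternal-asthma list, and were named after their values were seen.

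By number, wide distal domains at chromosome ends were near the share of the genome that lies there. Within 1 Mb of the first or last assembled base of a chromosome lay 30 wide distal domains (1.70%, 1.15 to 2.42%) in the control list and 41 (1.63%, 1.17 to 2.20%) in the maternal-asthma list, while 1.57% of the assembled autosomal bases, 37.5 of 2396 Mb, lie there. Some stricter definitions gave higher shares on few domains. The shares were 3.30% (0.69 to 9.33%) and 5.49% (1.81 to 12.4%) at a width of 2000 bp. Without joining over gaps they were 3.55% (1.16 to 8.08%) and 2.52% (0.69 to 6.32%). With the 10000 peaks of highest −log10 p they were 5.88% (2.19 to 12.4%) and 3.04% (1.32 to 5.91%). Other stricter definitions, which left more domains, did not raise the shares clearly. With no start within 20 kb they were lower, 1.53% (0.89 to 2.43%) and 1.19% (0.72 to 1.85%). With peaks of a −log10 q of at least 5 they were 1.71% (1.06 to 2.60%) and 1.82% (1.25 to 2.56%). Under the main rule, the domains at ends were spread over 13 and 16 chromosomes. Of these domains, 16 and 20 lay on the side of the first base, next to the centromere, and 14 and 21 on the other side. Most of them, 23 and 33, aligned to one of the 7 elements. The share at an end was higher among the strong domains, which were picked by their −log10 q, so this is a description. Of the domains with a −log10 q over 30, 7 of 20 in the control list and 7 of 21 in the maternal-asthma list lay at an end, as did 5 and 4 of the 10 strongest. The share at an end among other joined domains of such −log10 q was not computed.

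The domains nearest to the ends can be named. Nearest to a first base were chr18:3004694-3006061 (above), chr18:3056742-3058069, the 3′ part of a Leu-site element with 29 fragments, and chr9:3080926-3083552, the 5′ part of a Phe-site element with 34, in the control list. In the maternal-asthma list they were chr18:3004526-3006036, chr17:3029805-3030875, an array of 21-base units with 56 fragments, and chr4:3089829-3090989 with 29. The last 2 were overlapped by single peaks with 40 and 21 fragments in the control list. Nearest to a last base were chr2:181917337-181918809, 94415 bp from it, with 63 and 59 fragments, chr14:124654323-124655824 within Fgf14 (an intracellular regulator of sodium channels), an L1-like 5′ end with 33 and 38 fragments, and the chromosome 9 array above. In the maternal-asthma list, chr4:156306385-156308025 and chr19:61241358-61242676 lay 50091 and 88890 bp from the last base, and the second of these had no peak in the control list.

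Assembly gaps of at least 100 unknown bases lay within 10 kb of 14 wide distal domains (0.79%, 0.43 to 1.33%) and 16 (0.64%, 0.36 to 1.03%), against 0.20% (0.15 to 0.27%) of windows. The shares were 0.46% (0.36 to 0.57%) and 0.39% (0.32 to 0.48%) for narrower distal domains, and 0.32% (0.13 to 0.66%) and 0.78% (0.31 to 1.59%) for wide domains near starts.

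No wide distal domain of either list had a match of at least 100 bases and 80% identity to chromosome M, 0 of 1765 and 0 of 2519 (upper 95% bounds 0.209% and 0.146%). The same held for the rDNA queries, the longest match to which was 56 bases in a domain of either list. The stretches that were marked stood outside the rule. A copy of mitochondrial sequence at chr1:24611722-24616008, 4287 bases and 99.95% identical to chromosome M, was a wide domain with a start nearby in the control list (−log10 q 14.5), and 3 narrower domains on chromosomes 12 and 2 matched chromosome M as well. No domain of the maternal-asthma list did. On chromosome M itself, 4 peaks of the control list covered 1323 of 16299 bases at a fold of 1.89 to 2.42, and the maternal-asthma list had none.

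The rDNA locus on chromosome 17, at Gm26917 and Rn18s-rs5, was a wide domain in both lists, chr17:39843101-39848696 and chr17:39843099-39848674, with a fold of 2.21 and 2.23. It was left out of the wide distal domains because annotated starts lay within 5000 bp. Only 3 and 2 wide domains were left out for a start of an rRNA-type gene alone. A stretch of 863 bases at chr6:3200778-3201640, 98.1% identical to Rn18s-rs5, was far from starts but too narrow, with a −log10 q of 62.4 in the control list and 40.9 in the maternal-asthma list.

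Most wide distal domains touched a peak of the other list. Of those of the control list, 1709 of 1765 (96.8%, 95.9 to 97.6%) were overlapped by a peak of the other list, and of those of the maternal-asthma list 2252 of 2519 (89.4%, 88.1 to 90.6%). The background over all joined autosomal domains was 76.5% and 64.2%. It was 93.7% and 94.3% for wide domains near a start, and 73.4% and 51.5% for narrower distal domains. The share of the wide distal domains thus lay above all 3 in the control list. In the maternal-asthma list it lay above all joined domains and the narrower distal ones and below the wide domains near a start. With the domains of each list split by width into 4 equal sets, it was, from the narrowest, 96.4, 95.01, 97.1 and 98.9% in the control list and 85.9, 89.2, 88.1 and 94.4% in the maternal-asthma list. When each list was cut to its 10000 peaks of highest −log10 p, the share was 94.1% of 102 domains in the control list and 51.0% of 263 in the maternal-asthma list. In the same shortened lists it was 39.7% and 42.1% of all joined domains, 69.4% and 28.2% of narrower distal domains, and 33.0% and 57.1% of wide domains near starts.

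Overlap of domain with domain was less common. A wide distal domain of the other list overlapped 61.0% (58.7 to 63.3%) of those of the control list and 42.8% (40.9 to 44.8%) of those of the maternal-asthma list. The same held for 7.21% and 4.64% of all joined domains, and for 7.29% and 3.02% of narrower distal domains. For wide domains near starts, which the rule keeps out of the domains they would have to overlap, it held for 0.092% (2 of 2174) and 0 of 901. Peaks of the other list covered at least 50% of the bases in 43.7% and 37.6% of wide distal domains, against 58.0% and 54.4% of all joined domains, 64.4% and 43.6% of narrower distal domains and 36.0% and 65.9% of wide domains near starts. This measure counts the gaps between joined peaks. Peaks of their own list covered a median of 60.03% and 56.2% of the bases of wide distal domains, 81.4% and 61.0% of those of wide domains near starts, and 100% of those of narrower distal domains. The part of these gaps in the shares was not tested. The 1078 overlapping pairs had a median width of 1349 bp in the control list and 1345.5 bp in the maternal-asthma list, with a median distance of 56.5 bp between their starts and 50 bp between their ends. In 578 pairs the domain of the maternal-asthma list was the wider, and in 496 that of the control list.

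Overlap differed among the groups. All 46 Leu-site 3′ domains of the control list were overlapped (92.3 to 100%), but 96 of 132 of the maternal-asthma list were (72.7%, 64.3 to 80.1%). The L1-like 3′ ends were overlapped in 97.5% (96.3 to 98.5%) and 90.7% (88.8 to 92.3%), the L1-like 5′ ends in 98.8% (96.5 to 99.8%) and 92.9% (90.1 to 95.2%), and the Leu-site 5′ domains in 100% (97.3 to 100%) and 91.2% (86.8 to 94.6%). The Phe-site 5′ domains were overlapped in 95.5% and 90.3% and the Phe-site 3′ domains in 93.01% and 88.8%. Of the few in the middle of L1-like elements, 19 of 24 (79.2%, 57.8 to 92.9%) and 19 of 26 (73.1%, 52.2 to 88.4%) were. Among domains with under 10% of stretches copied, the overlap was 28 of 32 (87.5%, 71.0 to 96.5%) and 23 of 23 (85.2 to 100%). This split was chosen after the values were seen.

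**Figure D5:**
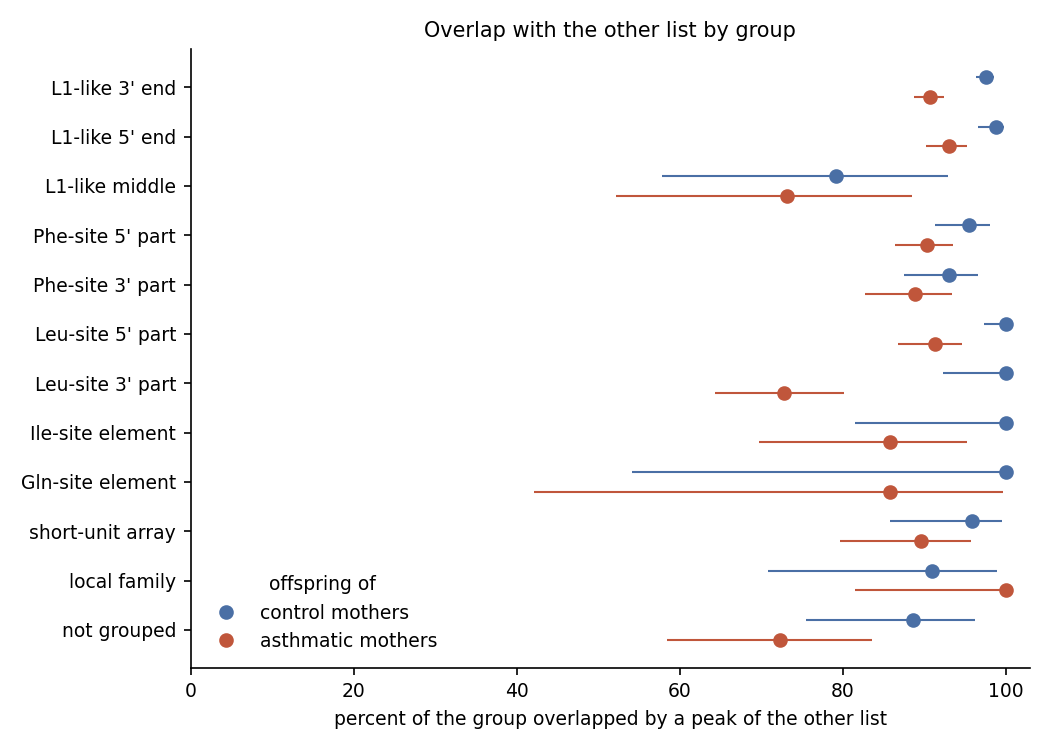
Share of the wide distal domains of each group overlapped by at least 1 bp by a peak of the other list (horizontal axis, percent), with exact 95% intervals as lines, blue for the control list and red for the maternal-asthma list. The Leu-site 3′ part is at 100% in the control list and at 72.7% in the maternal-asthma list.

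Domains without any peak in the other list had lower values. The median −log10 q was 6.89 in the 56 of the control list and 7.65 in the 267 of the maternal-asthma list, against 9.08 and 9.91 in the overlapped ones. The widest of the 56 was chr3:96499775-96502144, of which 11.1% was repeat-masked and none of the stretches copied, with 3 peaks and 23 fragments. Of the others among the 5 widest, 2 were L1-like middle stretches on chromosomes 2 (within Scn7a, a sodium channel gene) and 12, 1 was the 3′ part of a Phe-site element on chromosome 2, and 1 was a tandem array near Mgmt on chromosome 7. The widest of the 267 was chr9:122543035-122545725, with 4 peaks and 29 fragments. It was followed by an L1-like 3′ end on chromosome 19, a Leu-site 3′ part and a Phe-site 3′ part on chromosome 3, and a tandem array within Ccdc91 on chromosome 6, with 21 to 36 fragments.

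The widest domains of all came from the same groups. In the control list, the widest was the 3′ part of a Phe-site element of 3309 bp, chr18:51073766-51077074, with 4 peaks and 30 fragments. Of the 10 widest, 4 were of the Phe-site element, 1 an L1-like 3′ end and 1 an L1-like 5′ end, next to the chromosome 6 array shown above, a domain within Map6, and domains of local families at chr8:20703770-20706813 and chr8:55120752-55123533. In the maternal-asthma list, the widest was the monomer array of 3578 bp shown above, within Gm5592, with 5 peaks and 36 fragments, where the control list had a single peak with 35. Of their 10 widest, 3 were L1-like 5′ ends, 2 belonged to the Phe-site element and 2 to the local family on chromosome 8. The array on chromosome 6 and the domain at chr8:20703747-20706807 were among the 10 widest of both lists, with 34 and 35 fragments for the former and 73 and 74 for the latter.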

How the data were processed

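The data were 2 H3K4me3 peak lists, 1 library per group, in mouse lung ILC2s. Per the study's methods and the labels, the authors trimmed paired reads of 75 bases with Trim Galore and Cutadapt, aligned them with Bowtie 2 to GRCm38 (mm10) and removed duplicates. The options stated for the aligner kept only pairs aligned together and in proper orientation, and name no rule for reads with several equal positions. The study's reporting summary says that no peaks were called on these libraries, although peak lists were deposited, so the caller, its threshold and any use of an input library are not given in the sources used here. The deposited peaks carried positions, a whole-number score, a fold (ratio) over the caller's background, and −log10 p and −log10 q, all set within 1 library.

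Domains were built from peak positions, and starts, genes and soft-masked repeats came from GENCODE vM21 and the GRCm38 reference. From the deposited fold and −log10 p, a Poisson model without a control gave the number of fragments at each summit and the background that the caller had set, and it matched the −log10 p within 0.001 for 100% of autosomal peaks. The number of reads in a library was not in the lists, so depth was given only through these fragments. The study's reporting summary gives a total for the sequencing without a value for each library. Masking, GC, CpG, tandem units (5 to 1000 bases) and exact copies of 75-base stretches every 25 bases were computed with Python 3.11.15, NumPy 2.4.6 and Numba 0.67.0, and alignments made with BLAST+ 2.17.0 at 75% identity or more. Windows of 1000 bp every 100 kb served as the genome background. Scripts were tested on simulated data. Intervals are exact Clopper-Pearson (SciPy 1.17.1), and with 1 library per group no test was made.

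The members and lists were chosen with earlier results of these data known. Regions named were the 10 widest domains of each list, the 5 with the highest −log10 q, the 3 nearest to the first and the 3 nearest to the last assembled base, mitochondrial-like and rDNA-like members, and the 5 widest without a peak in the other list, and others are said to be added later. Alternatives changed the join distance, width, start distance, start type, peak cutoffs, overlap rule, end distance and sequence thresholds.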

Additional observations from a re-analysis of the deposited data

Results flagged for a closer look

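Wide domains far from any start were also present on the sex chromosomes, which the autosomal rule leaves out. Chromosome X held 168 in offspring of control mothers (median width 1351.5 bp, median −log10 q 9.28) and 273 in offspring of asthmatic mothers (1268 bp, 10.1). Chromosome Y held 33 and 28, with a median −log10 q of 8.10 and 9.47. On chromosome M, 4 peaks were listed in offspring of control mothers. The domains on chromosomes X and Y were set apart because they lie in data that the comparisons did not use. The peaks on chromosome M are described above. No difference between the lists was tested.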

How the results depend on the processing

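No paired analysis was possible because each group had a single library. Of 170 recomputed values, 84 moved by less than the limits used (1.5 times for a count, the exact interval for a share) and 86 moved by more. In what follows, pairs of values are for offspring of control and of asthmatic mothers, "masked" and "copied" are the shares of domains with at least 90% of bases masked or of stretches copied, and "overlap" is the share overlapped by a peak of the other list.

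With peaks joined only when they touch (0 bp), there were 141 and 159 domains, 5 and 4 at ends, 71 and 118 tandem, with overlap 99.3% and 97.5%, masked 85.1% and 88.7%, and copied 84.3% in offspring of asthmatic mothers. With peaks joined up to 3000 bp, offspring of control mothers had 2673 domains, 1 of them mitochondrial-like, with 49 and 69 at ends, overlap 94.7% and 86.3%, copied 80.4% and 72.9%, and masked 93.7% in offspring of asthmatic mothers. With a width of 500 bp there were 4915 and 6765 domains, 83 and 109 at ends, 849 and 1299 tandem, 2 and 2 rDNA-like, with overlap 94.6% and 86.1%, and in offspring of control mothers masked 94.1% and copied 82.6%. With a width of 2000 bp there were 91 and 91, 3 and 5 at ends, 18 and 26 tandem, with overlap 97.8% and 94.5%, masked 93.4% and 92.3%, and copied 76.9% in offspring of asthmatic mothers. With no start within 20 kb there were 1113 and 1595, 17 and 19 at ends, 119 and 247 tandem, with masked 97.5% and 97.9%. With protein-coding starts only, 1 mitochondrial-like domain appeared in offspring of control mothers and 1 and 1 rDNA-like, with masked 93.8% and copied 82.6% in offspring of control mothers. With peaks of a −log10 q of at least 5, overlap was 94.96% and 86.6%. With the 10000 peaks of highest −log10 p, there were 102 and 263 domains, 6 and 8 at ends, 43 and 146 tandem, with overlap 94.1% and 51.0%, masked 80.4% and 89.7%, and copied 68.6% in offspring of control mothers.

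Other definitions gave the following values. Overlap by a wide distal domain was 61.0% and 42.8%, and by peaks over at least 50% of the bases 43.7% and 37.6%. Within 0.1 Mb of an end lay 4 and 9 domains and within 5 Mb 113 and 154. At 50% of bases, masked was 97.1% and 98.2%, and at 50% of stretches copied was 96.9% and 97.9%. In alternatives chosen after seeing the data, asking for 80% of a domain aligned left 85.6% and 85.7% aligned to any element. Overlap was 87.5% and 100% among domains with under 10% of stretches copied, and 91.9% in offspring of asthmatic mothers among those with at least 90%. The cause of these differences was not tested. With a median of 24 fragments at a summit and 1 library per group, a missing peak in the other list may be a peak under its threshold, and no interval here covers variation between mice.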
